A study of Mus musculus with 9 samples.

Results

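Autophagy, lysosome and vesicle sorting genes were examined in lenses of mice at 15.5 days post conception. They were chosen by symbol: those that start with Atp6v, Gabarap or Map1lc3, those with Atg, Vps or Lamp followed by a digit, and those with Cts followed by a single letter. Of the 7676 genes listed once in the inbred wild type tables, 68 met this rule. None of the 190 genes in the tables of the other groups met it. The members could therefore be described in 1 group only, and no comparison between groups was possible for them.

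The series holds 9 RNA-seq libraries in 3 groups of 3, each made from 30 pooled lenses. The inbred wild type lenses came from the strain C57Bl/6<har>. The mixed wild type lenses were Sip1 flox/flox without Cre, on a mixed background. The conditional knockout (cKO) lenses were also Sip1 flox/flox but carried MLR10Cre, a transgene that drives Cre recombinase in the lens, again on a mixed background. Sip1 is the protein of Zeb2, a transcription factor gene. The labels call the replicates independent.

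Autophagy encloses cytoplasm and organelles in a double membrane, the autophagosome, which fuses with lysosomes. Lysosomes are acidified by a proton pump, the V-ATPase, and digest their content with cathepsins and other hydrolases. Vps proteins sort membrane and cargo between the Golgi, endosomes and lysosomes. In the lens, fibre cells later lose their nuclei, mitochondria and other organelles, which leaves a transparent core. Levels below are in RPKM, reads per kilobase of exon and per M (mega) mapped reads. They are scaled by the exon length deposited with the data. For some members that length differs much from the longest transcript of the reference annotation GENCODE M21. Comparisons between genes depend on the length used.

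Libraries held 14.1 to 16.7 M reads (inbred wild type), 25.9 to 27.4 M (cKO) and 38.7 to 44.1 M (mixed wild type), as read back from the spacing of low RPKM values. A member had from 34 to 5957 reads in a single inbred library, and 65 of the 68 had at least 100 reads in each of the 3. All 9 lens fibre markers and all 5 lens epithelial markers were in the inbred list. None of 20 macrophage and leukocyte, 6 osteoclast and bone, 8 retina and pigment cell or 10 periocular mesenchyme markers was listed. Of the other markers, 6 of 10 endothelial genes (summed level 20.1 to 24.4 RPKM per library) and 6 of 11 erythroid genes (1069 to 1114 RPKM) were listed. Their part in the levels of the members was not tested. No gene of the inbred list had a mean under 2 RPKM. Of the 103 protein-coding mouse genes in RefSeq whose names meet the rule, 35 were not listed, either because they lay below this level or for some other reason.

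The members spanned a wide range of levels, from 2.36 RPKM for Atg14 to 140 RPKM for Ctsd. The median of their mean levels was 8.50 ± 0.21 RPKM (SD of the library medians, n = 3), beside 7.65 ± 0.23 RPKM over all listed genes. Within replicates 1, 2 and 3 the members' median was 8.62, 8.80 and 9.04 RPKM, each above 8.50. That of all listed genes was 7.50, 7.51 and 7.89 RPKM. Above the median of all listed genes lay 39 members, 57.4%. At 50 RPKM or more were 9 members, 13.2%, against 8.48% of all listed genes. The members made up 0.886% of listed genes and took 0.411% ± 0.009 of the reads of listed genes (SD, n = 3). The most abundant genes weigh most in the total of reads, such as the lens fibre marker Cryaa at a mean of 89016 RPKM. Beside the members, 36 Rab GTPase genes had a median of 9.25 ± 0.49 RPKM and 45 proteasome genes one of 29.4 ± 0.79 RPKM, given as descriptions with no test.

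**Figure D1:**
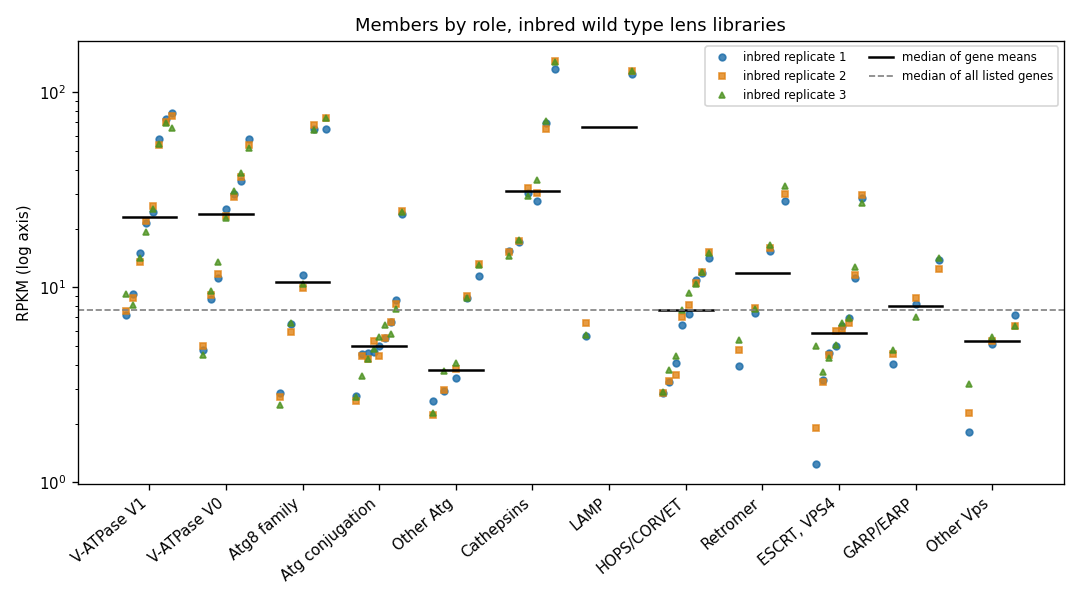
RPKM (log axis) of each of the 68 members in the 3 inbred wild type libraries, grouped by role, with the median of gene means per role (black line) and the median of all listed genes (dashed line, 7.65 RPKM). The cathepsin median of 31.01 RPKM and both V-ATPase medians, 23.0 and 23.7 RPKM, lie above the dashed line, and the Atg conjugation median of 5.001 RPKM lies below it.

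Levels differed by role. The 6 cathepsins listed had a median of 31.01 ± 1.65 RPKM (SD of library medians, n = 3), the V-ATPase subunits of the membrane sector V0 23.7 ± 1.33 and those of the cytosolic sector V1 23.0 ± 0.93. Medians were lower for retromer genes (11.8 ± 0.37 RPKM), Atg8 family genes (10.6 ± 0.90), the GARP and EARP tethers of the Golgi and recycling endosomes (8.03 ± 0.90) and the HOPS and CORVET tethers of endosomes and lysosomes (7.64 ± 0.82). The lowest medians were those of ESCRT genes with the VPS4 ATPases (5.82 ± 0.18 RPKM), of the remaining Vps genes (5.32 ± 0.25), of Atg8 and Atg12 conjugation genes (5.001 ± 0.27) and of the other Atg genes (3.78 ± 0.34).

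Genes of lysosomes and autophagy are known targets of the transcription factors TFEB and TFE3, which bind an E-box with flanking bases, the CLEAR element. RefSeq promoter windows (GRCm38.p6), 250 bases before to 50 after a gene's start, were found for 51 members. A gene with several annotated starts had a window for each and counted if any of them held the motif. Several starts were annotated for 13.7% of these members, 20.7% of inbred list genes and 15.4% of all genes in the table. The E-box CACGTG, which reads the same on both strands, was in 16 of them (31.4%), in 757 of 5877 inbred list genes (12.9%) and in 8.09% of all 27025 genes in the table. The longer palindrome TCACGTGA, which contains the E-box, was in 9 members (17.6%), in 165 inbred list genes (2.81%) and in 1.12% of all genes. No test of these shares was made, and a match is not evidence of binding.

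The 9 genes with TCACGTGA came from several roles: Ctsd and Ctsa among cathepsins, Atp6v1a, Atp6v0d1 and Atp6v0e of the V-ATPase, Vps16 and Vps33a of HOPS, Vps26a of retromer and Atg3. The windows around the palindrome (in capitals) are shown for 7 of them to place it against the start, 5′ to 3′ on the gene's strand.
Ctsd: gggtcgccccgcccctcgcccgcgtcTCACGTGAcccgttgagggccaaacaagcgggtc
Ctsa: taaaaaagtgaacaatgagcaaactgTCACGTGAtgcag
Atp6v1a: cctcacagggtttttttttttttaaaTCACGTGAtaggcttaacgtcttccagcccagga
Atg3: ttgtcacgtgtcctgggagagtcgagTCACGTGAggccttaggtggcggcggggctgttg
Vps16: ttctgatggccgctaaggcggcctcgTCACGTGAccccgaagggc
Vps26a: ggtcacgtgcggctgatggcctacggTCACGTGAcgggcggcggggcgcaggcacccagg
Vps33a: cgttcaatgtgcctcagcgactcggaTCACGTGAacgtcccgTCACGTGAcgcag

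These lie at chr7:142387893-142387952 (minus strand), chr2:164833734-164833772 (plus), chr16:44139358-44139417 (minus), chr16:45158731-45158790 (plus), chr2:130424275-130424319 (plus), chr10:62486717-62486776 (minus) and chr5:123573016-123573070 (minus), in the same order. Counted from the annotated start, the palindrome starts at position -99 in Ctsd, -13 in Ctsa, -132 in Atp6v1a, -72 in Atg3, -19 in Vps16, -152 in Vps26a and -29 in Vps33a. A second one lies at 4 in Ctsa and at -13 in Vps33a. Vps26a has another annotated start further upstream, with a palindrome of its own at -183 from it (window chr10:62486955-62487014, not printed). The 9 genes with it had a median of 8.26 RPKM (4.74 to 140), and the 42 without it one of 7.53 RPKM (2.36 to 127). None of the 4 Atg8 family genes with a promoter in the table, and none of the 5 ESCRT and VPS4 genes, held the E-box in this window.

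Cathepsins are the proteases of the lysosome. Ctsd, which encodes the aspartic protease cathepsin D, was the highest member, at 132, 145 and 144 RPKM in inbred replicates 1, 2 and 3. Its mean of 140 ± 7.39 RPKM (SD, n = 3) ranked 219th of the listed genes. Ctsz, an exopeptidase gene, was at 69.4, 64.6 and 71.3 RPKM, below Ctsd in every library. Cathepsin D mRNA exceeded that of cathepsin Z by 2.05 ± 0.18 times (SD, n = 3).

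The cysteine protease genes Ctsf and Ctsl came next. Ctsf was at 27.9, 30.5 and 35.4 RPKM and Ctsl at 30.5, 32.4 and 29.4 RPKM, so the libraries of these neighbours overlapped. Ctsb, which encodes the cysteine protease cathepsin B, was at 17.0, 17.2 and 17.5 RPKM, and Ctsl exceeded it by 1.79 ± 0.10 times. The serine carboxypeptidase gene Ctsa, whose protein also protects lysosomal galactosidase and sialidase, was the lowest, at 15.4, 15.2 and 14.5 RPKM. Outside the list were 12 of the 18 single-letter Cts genes named by RefSeq, among them Ctss, Ctsk and Ctsw, known from antigen-presenting cells, osteoclasts and lymphocytes.

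LAMP proteins coat the inner face of the lysosomal membrane with sugar chains. Lamp1 was at 123.4, 129.1 and 128.5 RPKM and Lamp2, which also serves chaperone-mediated autophagy, at 5.62, 6.55 and 5.72 RPKM. The ratio of Lamp1 to Lamp2 was 21.4 ± 1.46 (SD, n = 3). Its size depends on the length used. The deposited exon length of Lamp2 was 9552 bases and its longest GENCODE M21 transcript 3604 bases, against 2255 and 2229 bases for Lamp1. Reads were 4642, 4745 and 4098 for Lamp1 and 896, 1020 and 773 for Lamp2. Lamp3 and Lamp5, known from dendritic cells and neurons, were not listed. Ctsd and Lamp1 were close, with Ctsd the higher in each library, by 1.10 ± 0.03 times.

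**Figure D2:**
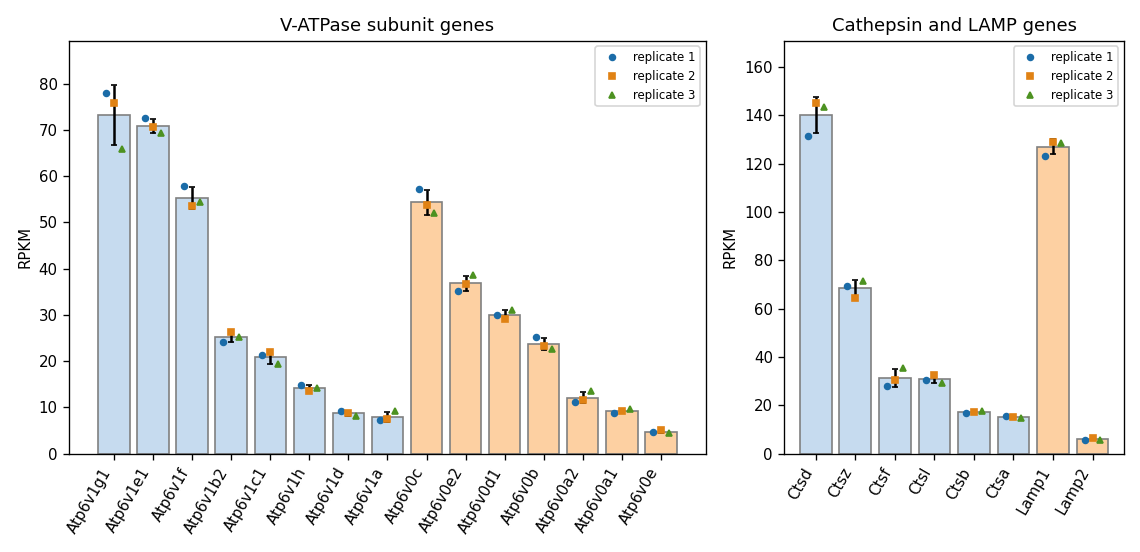
RPKM of V-ATPase subunit genes (left; blue V1, orange V0) and of cathepsin (blue) and LAMP (orange) genes (right) in inbred wild type lenses; bars are means, error bars SD and points the 3 libraries. Subunit genes run from 73.2 RPKM (Atp6v1g1) to 4.74 RPKM (Atp6v0e), and Lamp1 stands at 127 RPKM beside Lamp2 at 5.96 RPKM.

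The V-ATPase couples ATP hydrolysis in its V1 sector to proton flow through its V0 sector. Of the 23 RefSeq genes whose names start with Atp6v, 15 were listed. In the V1 sector, Atp6v1g1, a gene of the peripheral stalk, was the highest at 78.0, 75.9 and 65.8 RPKM. Its stalk partner Atp6v1e1 overlapped it at 72.6, 70.6 and 69.4 RPKM. Their order depended on the scale: Atp6v1g1 and Atp6v1e1 held 26.5% and 25.6% of the summed RPKM of V1 genes, but 16.8% and 28.5% when the authors' normalized expression value, deposited beside RPKM with no stated unit, was divided by exon length. Atp6v1f, of the central rotor, followed at 55.3 ± 2.32 RPKM (SD, n = 3).

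The gene of the catalytic subunit, Atp6v1a, had the lowest mean RPKM of V1, at 7.23, 7.55 and 9.23 RPKM. Atp6v1b2, its partner in the catalytic ring, was 3.19 ± 0.39 times higher, and Atp6v1e1 8.97 ± 1.31 times higher (SD, n = 3). Libraries of Atp6v1a overlapped those of the rotor gene Atp6v1d (8.74 ± 0.56 RPKM). The clamp and regulator genes Atp6v1c1 and Atp6v1h lay between, at 20.8 ± 1.37 and 14.2 ± 0.69 RPKM. The place of Atp6v1a depends on the length used. Its deposited exon length was 6044 bases and its longest GENCODE M21 transcript 4234 bases, against 3676 and 3667 bases for Atp6v1d. In the same order, the lengths were 5305 and 2825 bases for Atp6v1b2 and 1203 and 2928 bases for Atp6v1e1. The ratios of these genes to Atp6v1a therefore depend on the length as well. For Atp6v1c1 the lengths were 2097 and 4927 bases, and for Atp6v1h 1976 and 4829 bases. Atp6v1a had 729, 744 and 789 reads, and Atp6v1d 569, 526 and 424. The normalized value per length uses the same exon lengths.

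In the V0 sector, Atp6v0c, the gene of the main proteolipid of the proton-carrying ring, was the highest at 57.3, 53.8 and 52.0 RPKM. Atp6v0b, a ring gene as well, was at 25.2, 23.3 and 22.6 RPKM, and the ratio of Atp6v0c to Atp6v0b was 2.30 ± 0.02. The ring-to-rotor connector Atp6v0d1 was at 30.1 ± 0.98 RPKM. Of 2 genes for the small subunit e, Atp6v0e2 (35.2, 36.7 and 38.6 RPKM) exceeded Atp6v0e (4.74, 5.02 and 4.47 RPKM) by 7.79 ± 0.74 times. Divided by length, the normalized value put Atp6v0e2 (25.4% of V0) beside Atp6v0c (24.6%), which held 21.5% and 31.8% of RPKM. Of the genes for subunit a, which directs the pump to its membrane, Atp6v0a2 exceeded Atp6v0a1 by 1.32 ± 0.08 times, in 3 of 3 libraries.

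The 8 Atp6v genes not listed included Atp6v1b1, Atp6v0a4, Atp6v1g3, Atp6v1c2 and Atp6v0d2, known from kidney, epididymis or osteoclasts. The others were Atp6v1e2, known from testis, Atp6v1g2, known from brain, and Atp6v1fnb, which belongs to neither the V1 nor the V0 role list. Not being listed gives none of the 8 a value.

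Atg8 family proteins are attached to the lipid of the growing autophagosome and bind cargo receptors. All 5 genes of the fixed family list were in the inbred list, and the level was uneven. Gabarapl1 was at 65.1, 73.4 and 74.0 RPKM and Gabarap at 64.4, 67.6 and 64.3 RPKM, with overlapping libraries. Gabarapl2 was at 11.6, 9.87 and 10.4 RPKM and Map1lc3a at 6.44, 5.87 and 6.59 RPKM. Map1lc3b, which encodes the most used marker protein of autophagosomes, was the lowest, at 2.87, 2.72 and 2.48 RPKM.

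Of the summed RPKM of this family, Gabarapl1 held 45.4% ± 1.90, Gabarap 42.0% ± 1.09, Gabarapl2 6.84% ± 0.79, Map1lc3a 4.05% ± 0.32 and Map1lc3b 1.73% ± 0.17 (SD, n = 3). The low members depended on the scale. By normalized value per length, Gabarapl2 held 3.32% ± 0.37, Map1lc3a 1.81% ± 0.36 and Map1lc3b 0.325% ± 0.006. The order of the 5 genes was the same on both scales. Gabarap exceeded Map1lc3b 24.4 ± 1.79 times in RPKM and 140 ± 4.73 times on the other scale.

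**Figure D3:**
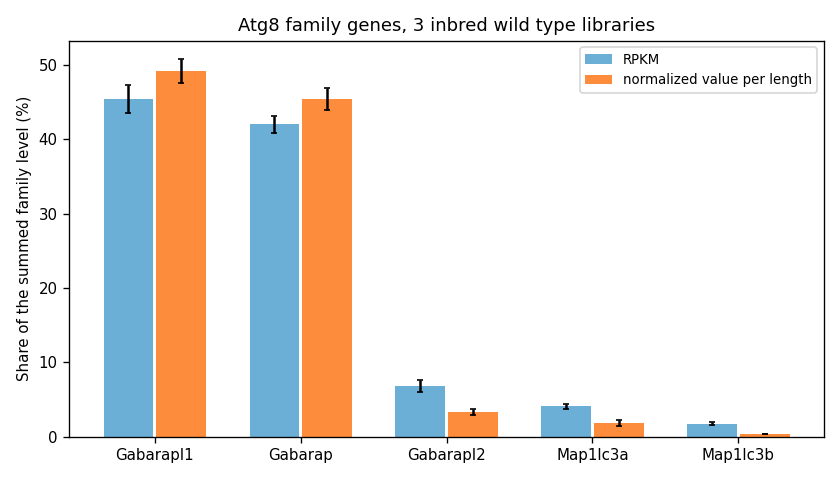
Share of the summed level of the Atg8 family held by each gene in the 3 inbred wild type libraries, from RPKM (blue) and from the authors' normalized value divided by exon length (orange); bars are means and error bars SD. Gabarapl1 and Gabarap hold 45.4% and 42.0% of RPKM, and Map1lc3b falls from 1.73% to 0.325% on the second scale.

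This difference between scales was measured for every member. The normalized value per read, relative to the 200 listed genes of nearest read number, was under 0.5 in 5 members: Vps25 (0.073), Map1lc3b (0.13), Map1lc3a (0.33), Atg4a (0.39) and Gabarapl2 (0.40). That is 7.35% of the members, against 7.18% of all listed genes. Between 0.5 and 0.75 lay Atp6v1g1 (0.57), Atp6v0b (0.63), Atp6v0c and Vps4a (both 0.71). To measure sequence shared with other genes, the longest GENCODE M21 transcript of each member was split into words of 31 bases, and the percentage also present in any other gene's transcripts was taken. It was over 10% in 17 members, 0% in 19, and 1.77% in the median member. Words were matched on either strand. The longest transcript can differ from the exons counted, with 4138 against 1712 bases in Map1lc3b and 6168 against 1975 in Ctsl. The percentages therefore do not describe the counted exons alone.

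Vps25 shared 85.9% of its words, all with Ramp2. Atg4a shared 74.9%, all of them also found in the pseudogene Atg4a-ps. Atp6v1g1 shared 24.0%, Gabarapl2 21.3%, Map1lc3b 13.0% and Atp6v0c 12.9%, and the gene with most shared words was a numbered gene model or a pseudogene in each. Map1lc3a shared 0%, and Vps37b (45.1%), Atg9a (43.9%) and Ctsd (37.1%) had values per read close to 1. Across the 68 genes Spearman's rho between both measures was -0.30, a description over genes that share the same libraries. Values of the genes with much shared sequence are uncertain, and whether the sharing sets the low values was not tested.

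**Figure D4:**
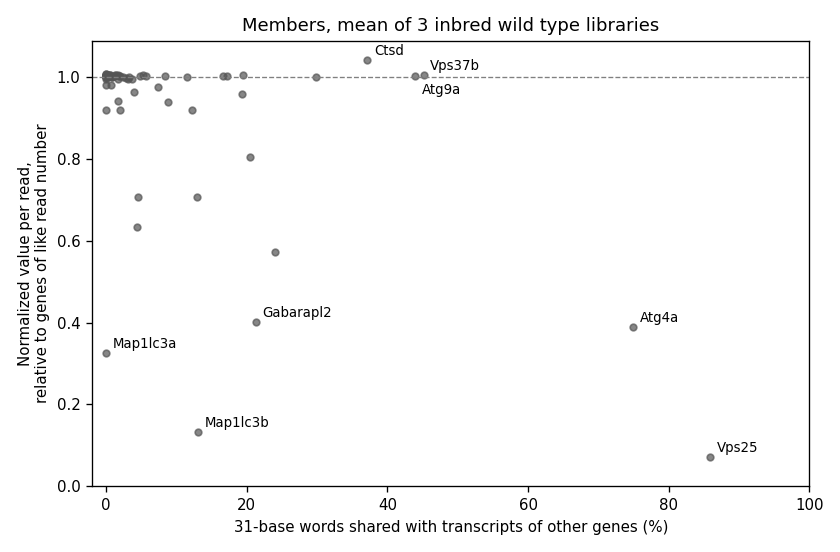
Authors' normalized value per read relative to genes of like read number (1 is typical, dashed line) against the percentage of 31-base words shared with other genes, for the 68 members, means of 3 inbred libraries. Vps25 (0.073 at 85.9%), Map1lc3b, Map1lc3a, Atg4a and Gabarapl2 lie under 0.5, while Vps37b, Atg9a and Ctsd lie near 1 despite 37.1% or more of shared words.

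Of the 9 genes listed for the attachment of Atg8 and Atg12, all but Atg12 and Atg3 lay below the median of all listed genes. Atg12, a ubiquitin-like protein gene, was the highest at 23.7, 24.6 and 24.2 RPKM. Atg5, to which Atg12 is joined, was at 4.64, 5.32 and 4.82 RPKM, and the ratio of Atg12 to Atg5 was 4.92 ± 0.26 (SD, n = 3). Atg3 and Atg10, the conjugating enzyme genes for Atg8 and Atg12, were at 8.16 ± 0.44 and 4.17 ± 0.57 RPKM, and Atg7, their activating enzyme gene, at 6.36 ± 0.51 RPKM. All 4 Atg4 proteases, which trim Atg8 proteins, were listed, from Atg4b at 5.78 ± 0.54 to Atg4c at 2.772, 2.599 and 2.722 RPKM. Between Atg7 and Atg5 in the order of means, Atg4b and Atg4d overlapped their neighbours in every case. Atg16l1, which places the Atg12 and Atg5 conjugate on the membrane, was not listed.

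Of the genes that start and extend the autophagosome membrane, Atg9a, which encodes a lipid scramblase of the supplying vesicles, was the highest at 11.4, 13.2 and 13.0 RPKM. Atg13, of the initiating kinase complex, was at 8.89 ± 0.08 RPKM (SD, n = 3). The lipid transfer genes Atg2b and Atg2a were at 3.78 ± 0.34 and 3.21 ± 0.46 RPKM with overlapping libraries. Atg14, which brings the lipid kinase complex to sites of autophagy, had the lowest mean of all members, at 2.605, 2.223 and 2.255 RPKM (mean 2.36). Without inbred replicate 3 its mean was 2.41 RPKM, above those of Vps13b (2.03) and Vps25 (1.57, from 2.71 with all 3).

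HOPS and CORVET tether late and early endosomal membranes before fusion. All 8 genes of the fixed list were present. Vps41, specific to HOPS, was the highest at 14.0, 15.2 and 15.1 RPKM, and Vps39, also specific to HOPS, the lowest at 2.87, 2.86 and 2.92 RPKM. Their ratio was 5.13 ± 0.22 (SD, n = 3). This ratio and the place of Vps39 depend on the length used. The deposited exon length of Vps39 was 8605 bases and its longest GENCODE M21 transcript 4384 bases, against 3195 and 3199 bases for Vps41. The shared core genes Vps16, Vps11 and Vps18 were at 11.9 ± 0.12, 10.6 ± 0.24 and 3.45 ± 0.27 RPKM. Vps33a exceeded its relative Vps33b by 2.05 ± 0.25 times, and Vps8, specific to CORVET, was at 7.03 ± 0.59 RPKM.

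Retromer recycles receptors from endosomes to the Golgi or the cell surface. Its scaffold gene Vps35 was at 27.7, 30.0 and 33.0 RPKM, 1.90 ± 0.10 times Vps29 (15.9 ± 0.55 RPKM) and 3.94 ± 0.27 times Vps26a (SD, n = 3). Vps26b was the lowest at 3.92, 4.76 and 5.35 RPKM, below Vps26a (7.66 ± 0.22 RPKM) in 3 of 3 libraries. In RPKM, libraries of the 4 genes did not overlap. The order of Vps26b and Vps26a depends on the length used. The deposited exon length of Vps26b was 6872 bases and its longest GENCODE M21 transcript 3575 bases, against 3252 and 2712 bases for Vps26a. Reads were 450, 533 and 520 for Vps26b and 402, 414 and 357 for Vps26a. Vps26c met the naming rule only under its present name. It was listed as Dscr3 at 5.18 ± 0.28 RPKM and is not counted as a member.

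ESCRT complexes sort ubiquitinated cargo into vesicles inside the endosome, and the VPS4 ATPases take them apart. Vps28, of the complex ESCRT-I, was the highest at 28.7, 29.9 and 27.1 RPKM. Vps4a exceeded Vps4b by 3.45 ± 0.10 times in RPKM and by 2.42 ± 0.13 times on the normalized value per length (SD, n = 3). Both ratios use the deposited exon lengths, 2522 bases for Vps4a and 8384 bases for Vps4b. The longest GENCODE M21 transcripts had 2178 and 4633 bases. Reads were 471, 477 and 454 for Vps4a and 467, 446 and 438 for Vps4b. Of the alternative ESCRT-I subunits, Vps37b, Vps37c and Vps37a were at 6.30 ± 0.23, 5.34 ± 0.52 and 4.46 ± 0.13 RPKM. Vps36, of ESCRT-II, was at 6.82 ± 0.24 RPKM.

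Vps25, its partner in ESCRT-II, differed most between replicates. It was at 1.241, 1.905 and 4.996 RPKM, from 34, 51 and 116 reads. The 95% Poisson intervals were 0.86 to 1.73, 1.42 to 2.50 and 4.13 to 5.99 RPKM, and that of replicate 3 lay above the others. These intervals cover counting error only, and those of Vps13b did not overlap between replicates either. Without replicate 3 the mean of Vps25 was 1.57 RPKM, under the lowest mean in the inbred list (2 RPKM). Vps25 thus reached the level of the list only through replicate 3, the library that stood out. Ramp2, with which it shares sequence, was at 16.7, 15.7 and 14.3 RPKM, and its normalized value per read was also low, at 0.14 of the typical value. The level of Vps25 itself is therefore uncertain.

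Of the GARP and EARP tethers, Vps52 was the highest at 13.7, 12.3 and 14.1 RPKM and Vps54, specific to GARP, the lowest at 4.04, 4.57 and 4.75 RPKM. Vps53 lay between at 8.03 ± 0.90 RPKM (SD, n = 3). Vps45, which works with SNARE proteins, was at 5.32 ± 0.25 RPKM. Vps72 met the rule by its symbol at 7.21, 6.32 and 6.34 RPKM, though it is known as a subunit gene of chromatin remodelling complexes. Vps13b, a gene for a lipid transfer protein of the Golgi, was at 1.8, 2.27 and 3.20 RPKM.

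The members varied little between replicates. Their median coefficient of variation was 6.22%, beside 7.21% over all listed genes. Only Vps25 and Vps13b exceeded 20%, as did 3.06% of all listed genes. The highest value lay in replicate 1 for 20 members, in replicate 2 for 18 and in replicate 3 for 30. Over all listed genes, 52.4% were highest in replicate 3. Among the 56 neighbouring pairs in the order of means within a role, libraries overlapped in 12. Longer genes had lower RPKM, with a Spearman's rho between exon length and level of -0.48 over 68 members and -0.30 over 7676 listed genes, again a description.

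Of the regulators fixed in a list, 14 of 20 were listed by these names. Tfeb was not listed, Tfe3 was listed under its older name Tcfe3 at 3.13, 2.94 and 3.42 RPKM, and their relative Mitf was at 3.05 ± 0.18 RPKM (SD, n = 3). The highest 3 were Tsc2, an inhibitor of the growth kinase complex mTORC1 (89.6 ± 7.23 RPKM), Rraga, a GTPase gene that recruits this complex to the lysosome (56.3 ± 1.24), and Mtor, its kinase (22.5 ± 1.92).

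Of 28 further autophagy genes 26 were listed, with a median of 5.90 ± 0.36 RPKM. Bnip3l, a receptor gene for the removal of mitochondria, was the highest at 72.4 ± 3.39 RPKM (SD, n = 3), followed by the cargo receptor genes Sqstm1 (29.8 ± 0.63) and Nbr1 (25.6 ± 1.39). Bnip3l shared 27.4% of its words with its pseudogene and Sqstm1 20.9% with Mrnip. Of 54 further lysosomal genes 44 were listed, with a median of 10.1 ± 0.46 RPKM. They were led by Psap, a gene of activators of lipid breakdown (108 ± 6.85), and the membrane protein genes Laptm4a (85.0 ± 7.06) and Cd63 (64.9 ± 4.82). Cd63 shared 16.6% of its words, with 13.2% found in its pseudogene. The normalized value per read was 0.65 of the typical value for both Cd63 and Bnip3l.

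Of the fixed pathway lists, the only genes in the tables of the mixed wild type and cKO lenses belonged to fibre maturation. They were Dnase2b, the acid nuclease gene needed to degrade fibre cell DNA, Birc7, an inhibitor of apoptosis, and Lgsn, which encodes the lens protein lengsin. In inbred wild type Dnase2b was at 16.0, 20.4 and 14.3 RPKM. Mixed wild type lenses had 27.7, 26.6 and 30.0 RPKM of it, and cKO lenses 8.13, 9.81 and 8.06 RPKM. The 3 groups did not overlap, as was so for 57% of the 128 genes present in all 9 libraries between the wild types. Dnase2b was lower in cKO than in mixed wild type (log2 fold change -1.64, SE 0.10, limma adjusted p = 2.75e-08) and than in inbred wild type (-0.92, SE 0.14, adjusted p = 1.50e-05).

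Dnase2b was higher in mixed than in inbred wild type (log2 fold change 0.73, SE 0.12, limma adjusted p = 0.00142), a call lost under quantile normalization (0.29, limma adjusted p = 0.134, the highest of 0.000101 to 0.134 over the alternatives). Birc7 was at 26.8, 32.6 and 24.3 RPKM in inbred wild type, 35.2, 36.1 and 40.7 in mixed wild type and 7.86, 11.2 and 8.39 in cKO, and its groups did not overlap either. It was lower in cKO than in mixed wild type (log2 fold change -1.98, SE 0.13, limma adjusted p = 4.81e-08) and than in inbred wild type (-1.56, SE 0.14, adjusted p = 6.03e-08). Between the wild types the log2 fold change of Birc7 was 0.42 (SE 0.12, limma adjusted p = 0.0158), and without inbred replicate 3 or mixed replicate 3 this call was lost (0.0598 and 0.0517). Lgsn was near 0 in mixed wild type (0.069, 0.037 and 0.085 RPKM), and in cKO its values were 3.82, 2.78 and 4.28 RPKM (log2 fold change 2.85, SE 0.13, limma adjusted p = 4.55e-09, on the log2(RPKM + 0.5) scale). This size depends on the pseudocount, since it was 4.50 with 0.1 and 2.11 with 1, and the ratio of the group means was 56.9.

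Markers of other cell types differed in the same comparison. Of the 11 erythroid markers, Hba-a2 and Hba-x, both globin genes, were among the 190 and lower in cKO than in mixed wild type (log2 fold changes -2.14 and -1.79, SE 0.18 and 0.27, limma adjusted p = 4.11e-07 and 6.03e-05). Hba-a2 has a near-identical copy, Hba-a1, so its level is uncertain. Their summed level was 369 to 427 RPKM per library in inbred wild type, 398 to 538 RPKM in mixed wild type and 84.6 to 143.8 RPKM in cKO. Of the 10 endothelial markers, the receptor gene Tek was higher in cKO (log2 fold change 1.46, SE 0.09, limma adjusted p = 4.72e-08), at 7.84 to 8.61 RPKM, against 2.51 to 2.82 RPKM in mixed and 2.28 to 3.09 RPKM in inbred wild type. Their part in the values of Dnase2b, Birc7 and Lgsn was not tested.

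These differences have to be read against the way the genes were listed. Of the 190 genes, limma called 99.5% between cKO and mixed wild type, and 100% did not overlap. Each had a difference of at least 2.50-fold between the group means of the authors' normalized values. Among the 128 genes, it called 49.2% between the wild types and 93.8% between cKO and inbred wild type, where 93.8% did not overlap. The last 2 comparisons share groups with the first. The groups also differed in depth, cKO carried Cre, and Zeb2 was not among the 190, so the labels could not be checked against it. Fewer cells of a type and less RNA per cell cannot be told apart in whole lenses. That no member was among the 190 gives no value for any member in cKO lenses, since the rule by which the authors listed genes is not given in the sources used here.

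**Figure D5:**
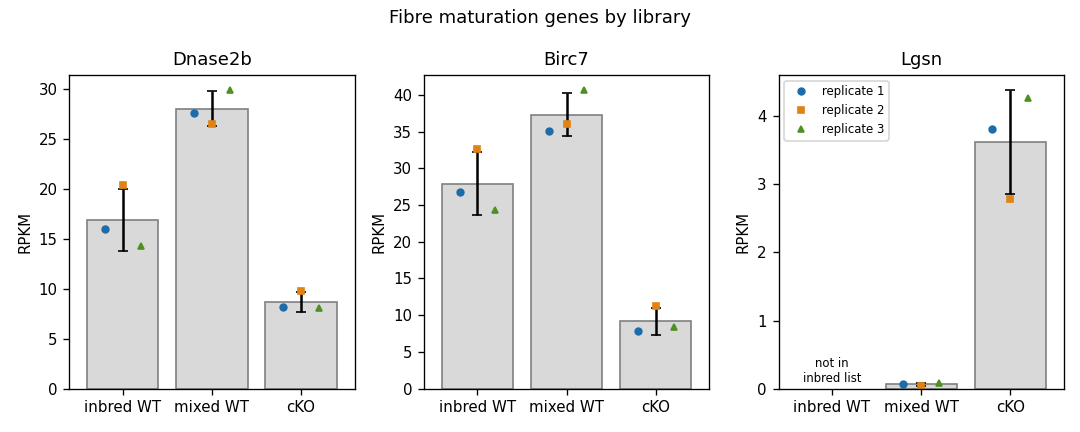
RPKM of Dnase2b, Birc7 and Lgsn in inbred wild type, mixed wild type and cKO lenses; bars are means, error bars SD and points the 3 libraries of each group. Dnase2b averages 16.9, 28.1 and 8.67 RPKM in the 3 groups, and Lgsn, not in the inbred list, 0.064 and 3.63 RPKM in the other groups.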

How the data were processed

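Lens RNA was sequenced from 9 libraries in 3 groups, taken from the sample titles. Per the labels' protocols, each held 30 lenses and was made with an Illumina TruSeq kit, and the submitters' processing notes name CASAVA 1.8.2. Aligner, annotation and build were not given in the sources used here. The authors deposited, per the file headers, RPKM and a normalized expression value, used as a score since its unit is not stated, with exon lengths for inbred libraries.

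From 7700 inbred rows, 24 with repeated symbols were left out. Reads were recovered as RPKM times exon length times depth, where depth made low values whole within 0.1 reads (95.0% to 100% of 60 values per library). Replicates differed by more than sampling noise (chi-square per degree of freedom 6.97 to 16.7). Members, roles and lists were chosen with earlier results of these data known. Every member is accounted for by role, and values per library were printed for Atg8 family, LAMP and cathepsin genes, for the highest and lowest member of other roles, and for further members chosen after their values were seen. Groups were compared with limma 3.58.1 (R 4.3.3), checked on simulated data, on log2(RPKM + 0.5), with a trend of variance on mean, keeping genes that averaged 1 RPKM or more, adjusted by Benjamini-Hochberg at 0.05. An exact permutation test of 3 against 3 cannot go below p = 0.1. Alternatives covered pseudocounts, filters, normalization, joint and blocked fits and left-out libraries. Other steps ran in Python 3.11.15 (pandas 2.3.3, numpy 2.4.6, scipy 1.17.1). GENCODE M21 and RefSeq (both GRCm38) served for names, sequence sharing and promoters, and all 68 members matched.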

Additional observations from a re-analysis of the deposited data

How the results depend on the processing

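Without one inbred library at a time, the members' median ranged from 8.52 to 8.71 RPKM, its percentile among listed genes from 53.7 to 55.1 (53.8 with all) and their share of reads from 0.408% to 0.416%. Keeping only genes of at least 5 RPKM left 50 members and moved these to 12.95 RPKM, 51.2 and 0.391%. On the normalized value per exon length the percentile was 56.4. An alternative chosen after seeing the data left out genes with a low normalized value per read and gave 8.89 RPKM, 56.8 and 0.522%. Keeping repeated symbols moved none of these by more than the spread between libraries. No fold change of a member could be computed, so the alternatives for them were not run. Between wild types, limma called 63 of 128 genes, and 46 to 65 under the alternatives. Birc7 also lost its call there under quantile normalization (log2 fold change 0.21, limma adjusted p = 0.111, with 0.00452 to 0.111 over the alternatives). Both calls against cKO held under all 15 alternatives for Dnase2b and Birc7. For the listed genes as a whole, only the number called under each alternative was counted. For cKO against mixed wild type limma called 167 to 190 genes, and 127 in the joint fit, which was limited to genes in all 9 libraries. For cKO against inbred wild type it called 105 to 122 of 128. The genes were listed already differing between cKO and mixed wild type, so a call that held is no separate support. Median centring over the genes tested shifted every log2 fold change of cKO against mixed wild type down by 0.88, to -2.53 for Dnase2b, -2.87 for Birc7 and 1.97 for Lgsn (1.76 under quantile normalization). The shift was 0.35 for cKO against inbred wild type and 0.15 between the wild types. Centring treats the median gene as unchanged, but limma called 189 of the 190 genes between cKO and mixed wild type. Quantile normalization gives all libraries of such a list the same distribution. The sizes under both therefore depend on which genes were listed. With the replicate number as a block, 189, 47 and 120 genes were called for cKO against mixed, mixed against inbred and cKO against inbred wild type, beside 189, 63 and 120 without it. Same-numbered libraries did not deviate together in every pair (correlation -0.52 to 0.24 over 128 genes). With 3 libraries per group, this cannot show whether the numbers pair the samples. Depth limits Vps25 and Map1lc3b most, at 34 to 116 and 60 to 82 reads per library.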

Other observations

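Tsc2 and Tsc1, whose proteins work as one complex, were at unequal levels in inbred lenses. Tsc2 was at 89.6 ± 7.23 RPKM and Tsc1 at 2.98 ± 0.37 RPKM (SD, n = 3). The longest Tsc2 transcript shared 10.6% of its 31-base words with Pkd1, and the part of this in its level was not tested. Tdrd7, a gene of RNA granules linked to cataract, stood at 364 ± 12.6 RPKM, and Pla2g16, which encodes a phospholipase of lens organelle breakdown, at 73.7 ± 4.84 RPKM. Alox15, a lipoxygenase linked to organelle loss in other cells, was not listed.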
